A study of Mus musculus with 12 samples.

Results

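The replication-dependent histone genes encode the linker histone H1 and the core histones H2A, H2B, H3 and H4. They were taken as all genes of the deposited table whose symbol begins with Hist1h, Hist2h, Hist3h or Hist4h, which gave 58 of 17710 genes: 6 H1, 14 H2A, 15 H2B, 10 H3 and 13 H4 genes. The study sequenced 12 liver libraries of male wild-type mice, and the labels number 3 samples per group in 4 groups without saying that each came from a separate mouse, so that p-values measure the spread between these samples. The groups were C57BL/6J mice on normal chow (ND), C57BL/6J mice on CDAHFD, a high-fat diet that lacks choline and supplies defined L-amino acids, ICR mice on ND and ICR mice on CDAHFD. Mice were 8 weeks old when purchased and were fed for 10 weeks. C57BL/6J is an inbred strain and ICR an outbred stock, so that ICR mice of a group need not share a genotype. This diet is used to induce metabolic dysfunction-associated steatohepatitis, and the comparisons ask how the liver transcriptome of each strain responds to it.

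Histones package DNA into nucleosomes, and a cell copying its DNA needs new histones in step with replication. The replication-dependent genes lie in clusters, are transcribed mainly in S phase, and mostly lack introns. Their mRNAs typically end not in a poly(A) tail but just after a conserved stem-loop, which is bound by the stem-loop binding protein Slbp and cut with the help of the U7 small nuclear ribonucleoprotein, while replication-independent variants such as H3.3 are made throughout the cell cycle from polyadenylated mRNA. Some members of the clusters can also make longer, polyadenylated transcripts, as described in differentiated cells. A library made from poly(A) RNA would therefore hold few of the stem-loop transcripts, and the sources differ on this point: the sample labels describe mRNA purification, whereas the methods of the study describe removal of ribosomal RNA. Which was used cannot be told apart from the gene counts, and each level below is that of the transcripts the libraries captured.

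The 16-base stem-loop consensus was searched on the sense strand of the GENCODE M21 transcripts of genome build GRCm38. It was found in 39 of the 58 members (67.2%) against 45 of 21951 protein-coding genes (0.205%), in 5 versions among the members. The protein-coding genes include histone genes, so the 45 are not 45 other genes. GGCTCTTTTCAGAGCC occurred in 23 members, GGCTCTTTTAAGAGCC in 6 and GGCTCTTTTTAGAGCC in 1, all of them H1, H2A, H2B or H3 genes. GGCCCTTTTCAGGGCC occurred in 7 members and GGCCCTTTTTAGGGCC in 2, all of them H4 genes. The members that lead the results below are shown because they hold 3 of the 5 versions and because their annotated transcripts end at very different distances from the motif, which stands in capitals with its flanking bases in lower case.
Hist1h1c, motif at chr13:23739512-23739527, plus strand: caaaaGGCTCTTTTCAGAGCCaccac
Hist1h1d, motif at chr13:23555787-23555802, plus strand: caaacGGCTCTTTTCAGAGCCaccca
Hist1h2ad, motif at chr13:23574895-23574910, plus strand: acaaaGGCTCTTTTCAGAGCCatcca
Hist1h2be, motif at chr13:23585531-23585546, minus strand: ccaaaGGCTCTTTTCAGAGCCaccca
Hist2h3c2, motif at chr3:96238485-96238500, minus strand: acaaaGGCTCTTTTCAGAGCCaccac
Hist1h4h, motif at chr13:23531458-23531473, plus strand: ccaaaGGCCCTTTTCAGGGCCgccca
Hist1h4n, motif at chr13:21831798-21831813, minus strand: ctaaaGGCCCTTTTCAGGGCCatcca
Hist1h4i, motif at chr13:22040966-22040981, minus strand: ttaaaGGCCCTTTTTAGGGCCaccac

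The annotated transcript ended under 100 bases past the motif in 19 members and ran 100 or more bases past it in 20, and the other 19 held no match. A missing match says only that these letters are not in the annotated model, and many of those models are little longer than the coding sequence. The transcript of Hist1h4h ended 46 bases past the motif, that of Hist1h4n 31 bases and that of Hist1h2ad 42 bases. By contrast, 330 bases followed the motif in Hist1h4i, 840 in Hist1h1c, 1861 in Hist1h2be and 4884 in Hist1h1d. The lengths implied by the deposited counts and FPKM (fragment counts scaled to transcript length and library size) show that the authors' gene models were not always those of M21: for Hist1h1d the implied length was 3778 bases against 7425 in M21, and for Hist1h1c it was 1595 against 1560.

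Upstream of the genes, promoters of 300 bases (250 before and 50 after the start) were available from RefSeq on GRCm38.p6 for 53 members. The letters TATAAA of the TATA box were searched, like the other promoter motifs, anywhere in these 300 bases and on both strands. A match therefore need not be a TATA box by its position. TATAAA was present in 58.5% of them against 13.6% of 32851 promoters, and the CCAAT box in 83.0% against 37.4%. The CCAAT box separated the classes, since it was present in every H1, H2A, H2B and H3 promoter and in 3 of 12 H4 promoters. The octamer ATTTGCAT, known from H2B promoters, occurred in 5 of 13 H2B and 6 of 14 H2A promoters and in no H1, H3 or H4 promoter, against 1.7% of all promoters. Promoters of neighbouring H2A and H2B genes can overlap, so that 1 site can be counted for both genes. The octamer site is shared in this way by Hist1h2ae and Hist1h2bg and by Hist1h2ah and Hist1h2bk, and the H2A and H2B counts are not independent. These counts take 1 promoter for each gene, and the second RefSeq promoter of Hist1h2be, which was not counted, also holds the octamer. The promoters of Hist1h1c and Hist1h4i, the most abundant H1 and H4 genes, are shown as examples of these classes, with TATAAA and CCAAT in capitals. The Hist1h1c promoter (chr13:23738557-23738856, plus strand) holds CCAAT, and the Hist1h4i promoter (chr13:22041313-22041612, minus strand) holds TATAAA. The Hist1h4i match lies in the first part of the sequence, well before the start. The stretch tatatata, nearer the start in Hist1h1c, is no match to TATAAA and was not counted.
Hist1h1c: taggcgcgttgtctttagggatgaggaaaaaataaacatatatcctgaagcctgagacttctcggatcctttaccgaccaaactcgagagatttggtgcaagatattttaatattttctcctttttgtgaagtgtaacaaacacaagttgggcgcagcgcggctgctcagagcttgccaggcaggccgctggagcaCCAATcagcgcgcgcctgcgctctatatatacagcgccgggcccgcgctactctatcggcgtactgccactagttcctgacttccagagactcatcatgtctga
Hist1h4i: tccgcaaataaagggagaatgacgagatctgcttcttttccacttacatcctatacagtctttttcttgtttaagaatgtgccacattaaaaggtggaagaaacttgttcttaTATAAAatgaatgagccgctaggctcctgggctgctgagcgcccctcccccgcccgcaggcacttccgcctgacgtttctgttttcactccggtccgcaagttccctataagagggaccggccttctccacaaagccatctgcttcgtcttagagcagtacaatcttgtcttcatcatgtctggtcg

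Libraries held 22245245 to 32214782 counts, and the diets differed in composition: the 100 most counted genes took 42.0% to 46.5% of counts on ND and 28.6% to 34.5% on CDAHFD. Levels are therefore given as CPM (counts scaled to a common library size) on library sizes scaled by the trimmed mean of M values (TMM), which corrects for such a shift. Scaling by library size alone moved the CDAHFD over ND median of all genes on the log2 scale up by 0.65 in C57BL/6J and by 0.61 in ICR. Its values stand beside many of the diet results whose call it changes. In bulk liver, fewer cells of a type and less RNA per cell cannot be told apart.

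Histone transcripts made up a small share of the liver RNA, and 2 genes supplied most of it. All 58 members together took 0.0140% to 0.0317% of the counts of a library, and Hist1h2bc (46.3% of all histone counts) and Hist1h1c (38.0%) stood far above the rest. Per length, Hist1h2bc had a mean FPKM of 138 over the 12 libraries and Hist1h1c of 50.5. Next came the H4 genes Hist1h4i at a mean FPKM of 7.29 and Hist1h4h at 2.98, then Hist2h2be at 2.18. In all, 12 members reached a mean FPKM of 1, and 46 did not.

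**Figure D1:**
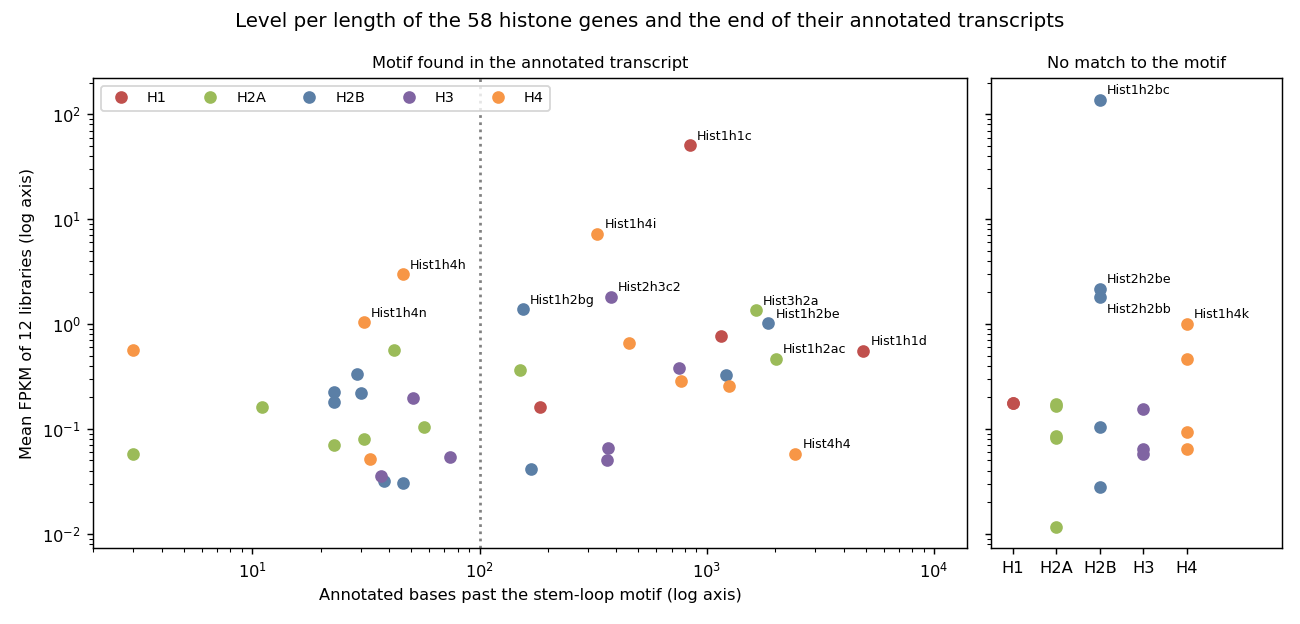
Mean FPKM of the 12 libraries (vertical, log axis) for each of the 58 genes, plotted in the left panel against the number of annotated bases past the stem-loop motif (log axis) and in the right panel for genes with no match, coloured by histone. Hist1h1c (50.5) and Hist1h4i (7.29) lie right of the dotted line at 100 bases, Hist1h4h (2.98) lies left of it, and Hist1h2bc (138) has no match.

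Most counts fell on members whose M21 transcript has a longer end or no match. The 20 members whose transcript ran 100 or more bases past the motif took 47.4% of all histone counts, most of it Hist1h1c at 38.0%. Their median mean FPKM was 0.425, and 13 of them were counted often enough to be tested in all 12 libraries. The 19 members that ended under 100 bases past it took 1.59% of the counts, with a median mean FPKM of 0.161, and 3 were tested (Hist1h4h, Hist1h4n and Hist1h2ad). The 19 without a match took 51.0%, nearly all of it Hist1h2bc, whose M21 model has 2 exons, and their median mean FPKM was 0.156. These are descriptions over genes that share sequence and position, and no test was made of them. The classes are those of M21 and need not hold for the models that were counted. The implied length was 764 bases against 1156 in M21 for Hist1h2bc, 758 against 1930 for Hist1h1e and 365 against 820 for Hist1h4c.

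Identical stretches limit how far single members can be read. Of all 75-base stretches of an annotated transcript, more than 50% also occurred in another gene for 21 members, with a median of 60.5% in H2A and 52.4% in H3 genes. The share was 83.4% for Hist1h4n, 65.5% for Hist1h2ad and 62.6% for Hist2h3c2, so the counts of these genes are uncertain, while it was 6.7% for Hist1h1c, 1.5% for Hist1h1d, 0 for Hist2h2be, 22.4% for Hist1h4i and 27.1% for Hist1h2bc. Exons of Hist1h1e and Hist1h2be overlap by 496 bases on the same strand, and those of Hist3h2a and Trim17 by 708 bases. The row named Hist2h2bb needs a caution of its own. Its gene identifier belongs in M21 to Gm42743, a noncoding gene of 2 exons on chr3:96269721-96279001 that overlaps the coding Hist2h2bb gene by 226 of its 381 bases. The implied length of 1557 bases is close to the 1511 bases of Gm42743, so the row is likely to count that model and is called the Hist2h2bb row here.

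With TMM scaling, the summed histone level was highest in C57BL/6J mice on ND. It was 280, 285 and 294 CPM in the 3 C57BL/6J ND libraries and 145, 205 and 204 CPM in the C57BL/6J CDAHFD libraries. In ICR mice it was 175, 189 and 184 CPM under ND and 249, 206 and 199 CPM under CDAHFD. The diet groups did not overlap in either strain, with CDAHFD lower in C57BL/6J and higher in ICR, but the C57BL/6J difference depends on scaling: with library size alone the group means were 234.5 CPM under ND and 235.6 CPM under CDAHFD, against 143.5 and 263.7 in ICR. The highest group mean was then that of ICR on CDAHFD, so the ranking of the groups also depends on scaling.

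Without Hist1h2bc and Hist1h1c, the other 56 genes summed to 24.5, 23.6 and 20.9 CPM in C57BL/6J on ND and to 22.1, 22.8 and 20.1 CPM under CDAHFD. In ICR they summed to 27.8, 33.3 and 30.5 CPM under ND and to 69.3, 43.9 and 41.8 CPM under CDAHFD. The ICR CDAHFD libraries thus lay above all others, with replicate 1 highest, while the C57BL/6J groups overlapped. As a share of all counts, with no further scaling, the 56 genes were also higher on CDAHFD in C57BL/6J, at 0.00255% to 0.00315% against 0.00178% to 0.00206%. The high ICR CDAHFD sum was seen for H4 (10.6 to 19.1 CPM against 6.39 to 7.26 on ND), for H3 (3.48 to 4.77 against 1.66 to 2.42) and for H2B apart from Hist1h2bc (18.4 to 28.2 against 15.4 to 18.0). It was also seen for H1 apart from Hist1h1c (3.57 to 10.8 against 0.787 to 3.10). The H2B difference rested on the Hist2h2bb row: without it the H2B sum was 19.2, 12.1 and 12 CPM under CDAHFD and 13.8, 14.3 and 16 CPM under ND, so that the groups overlapped and replicates 2 and 3 on CDAHFD were lowest. The sum of the other 55 genes was then 60.2, 35.2 and 35.5 CPM under CDAHFD and 26.2, 31.4 and 28.5 CPM under ND, still without overlap. For H2A the ICR libraries held 4.44 to 6.41 CPM under CDAHFD and 2.04 to 4.28 on ND, and the C57BL/6J CDAHFD libraries 4.66 to 6.08.

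**Figure D2:**
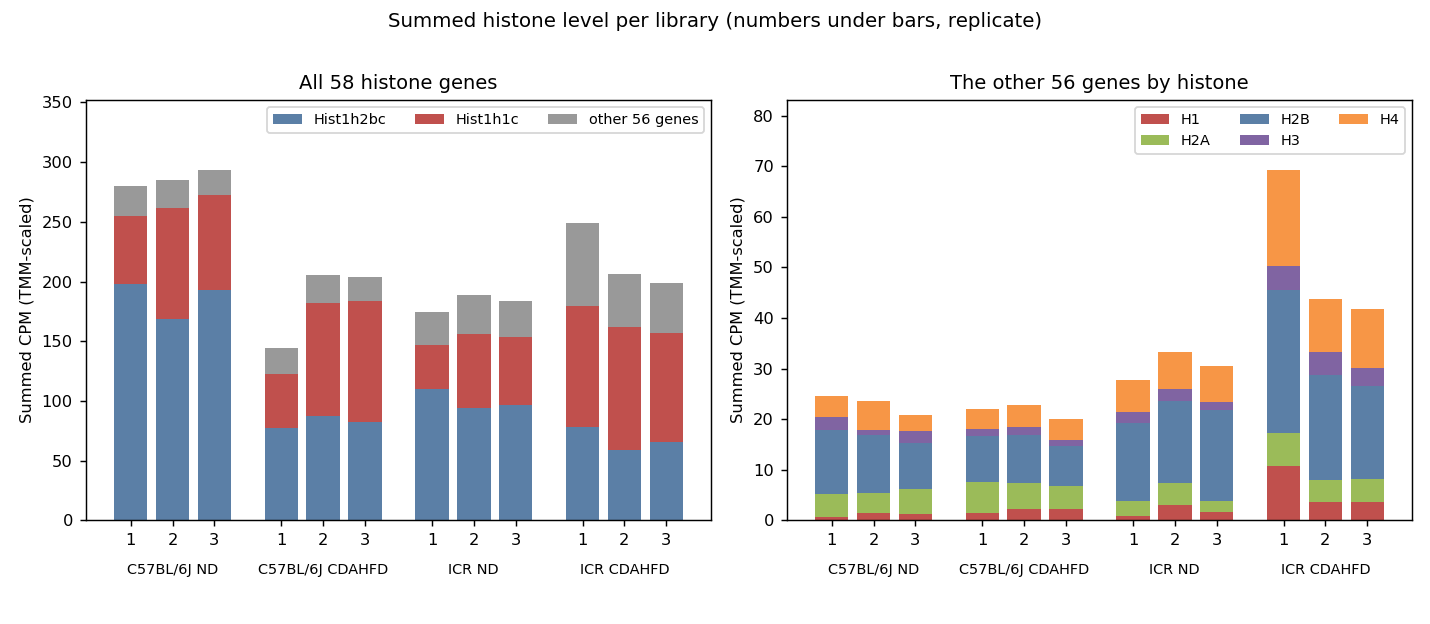
Summed CPM per library, by group and replicate. The left panel stacks Hist1h2bc, Hist1h1c and the other 56 genes, and the right panel stacks the 56 genes by histone; the ICR CDAHFD libraries stand at 41.8 to 69.3 CPM in the right panel and all others at 20.1 to 33.3.

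In C57BL/6J, CDAHFD feeding lowered 1 histone gene and raised none. Of 13402 genes tested, 26% were higher and 21.2% lower at an adjusted p under 0.05 (edgeR quasi-likelihood test with Benjamini-Hochberg adjustment, as throughout), whereas of the 11 members with enough counts 0 were higher and 1, Hist1h2bc, was lower. At an unadjusted p under 0.05 the count was the same, 0 higher and 1 lower, and DESeq2 also called 0 and 1. The median log2 fold change of the 11 members was -0.27, against 0 for all genes, and 5 were above 0. With library size alone, 2 members were higher, Hist1h1c and Hist1h1d, and Hist1h2bc remained lower.

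In ICR, CDAHFD raised 5 members, Hist1h1c, Hist1h1d, Hist1h4i, Hist1h4n and the Hist2h2bb row, and lowered Hist1h2bc. Here 18 members were tested, so 5 of 18 were higher where 20.1% of 13319 genes were, and 1 of 18 lower where 16.5% were. Members enter this count only when their level is sufficient in at least 3 libraries, the size of a group. A gene expressed in 1 group alone can therefore enter through that group. Of the 5 higher members, Hist1h4n held 5, 4 and 4 counts in ICR on ND and so could enter through the CDAHFD group. The Hist2h2bb row, which is likely to count Gm42743, is another of the 5 and is also in the strain counts below. The median log2 fold change was 0.80 over the 18 members and -0.01 over all genes, and 14 were above 0. Leaving out replicate 1 of the ICR CDAHFD group, the library with the highest sum, left 3 higher, Hist1h1c, Hist1h1d and the Hist2h2bb row. With library size alone 10 were higher and 0 lower, the added ones being Hist1h2ac, Hist1h2ad, Hist1h2bg, Hist1h4h and Hist2h3c2.

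**Figure D3:**
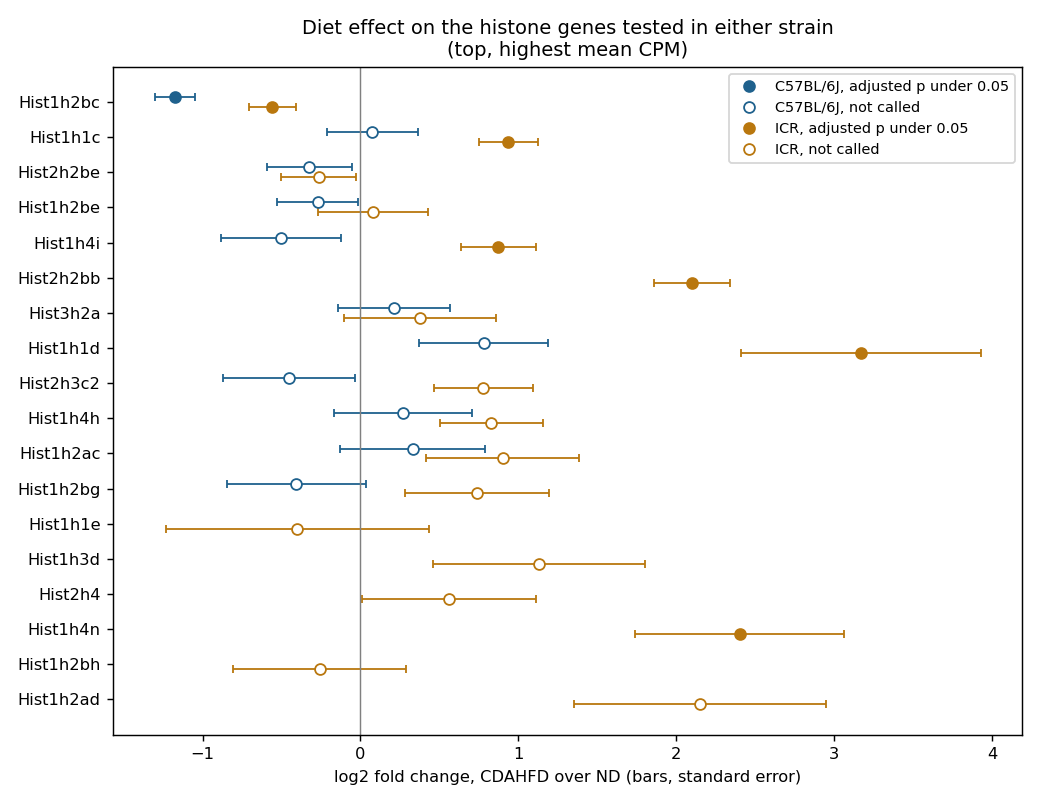
Log2 fold change of CDAHFD over ND with its standard error for the 18 histone genes tested in ICR (11 of them also in C57BL/6J), ordered by mean CPM; filled points passed an adjusted p under 0.05. Hist1h2bc is the 1 filled point in C57BL/6J, at -1.17, and in ICR 5 filled points lie right of 0 and Hist1h2bc lies left of it, at 0.05 with library size alone.

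Hist1h2bc, a core histone H2B gene and the most abundant member, was highest in C57BL/6J on ND. Its level was 198, 168 and 193 CPM in the C57BL/6J ND libraries and 77.2, 87.2 and 82.8 CPM under CDAHFD. In ICR it was 110, 94.0 and 96.6 CPM under ND and 77.9, 59.3 and 66.0 CPM under CDAHFD. Within each strain the diet groups did not overlap. The fold change on the log2 scale was -1.17 (SE 0.13, adjusted p = 0.000122) in C57BL/6J, and -0.53 with library size alone (adjusted p = 0.00875). In ICR it was -0.56 (SE 0.15, adjusted p = 0.0251), a fall that depends on the scaling, since it was 0.05 with library size alone. The ICR call was also lost without ICR CDAHFD replicate 2 (-0.46, adjusted p = 0.0925), ICR CDAHFD replicate 3 (-0.53, adjusted p = 0.0895) or ICR ND replicate 3 (-0.59, adjusted p = 0.0605).

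Between the strains on ND, Hist1h2bc was lower in ICR by 0.90 on the log2 scale (log2 fold change -0.90, SE 0.13, adjusted p = 0.00120). The ND groups did not overlap. On CDAHFD the value was -0.28 (SE 0.13, adjusted p = 0.149). Without ICR ND replicates 2 and 3, which carried more Mki67 mRNA than replicate 1, the ND difference was -0.76 with an adjusted p of 0.0582.

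No other H2B gene was called lower in a diet comparison. Hist2h2be, an H2B gene known in mice from olfactory neurons, overlapped between the diets in both strains, with group means of 5.95 ± 1.34 CPM (SD, n = 3) in C57BL/6J on ND, 4.74 ± 1.08 on CDAHFD, 6.94 ± 1.08 in ICR on ND and 5.75 ± 1.12 on CDAHFD. Its diet log2 fold changes were -0.32 (SE 0.27, adjusted p = 0.352) and -0.27 (SE 0.24, adjusted p = 0.415). Hist1h2be was at 3.93, 2.82 and 3.12 CPM in C57BL/6J on ND and at 2.76, 2.64 and 2.77 CPM under CDAHFD. In ICR it was at 5.01, 6.48 and 6.18 CPM under ND and at 9.44, 4.93 and 4.09 CPM under CDAHFD, so that the diet groups overlapped and replicate 1 stood apart. Neither diet comparison was called (adjusted p = 0.421 and 0.877). Hist1h2bg ranged from 0.483 to 1.10 CPM in C57BL/6J and from 0.639 to 1.84 CPM in ICR, with diet log2 fold changes of -0.41 (adjusted p = 0.484) and 0.74 (adjusted p = 0.241).

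The Hist2h2bb row was almost empty in C57BL/6J and counted in every ICR library. The C57BL/6J libraries held 0, 2 and 0 counts on ND and 0, 2 and 0 on CDAHFD. The ICR libraries held 34, 34 and 37 counts on ND and 343, 300 and 229 on CDAHFD. The ICR level was 1.67, 1.91 and 2.04 CPM under ND and 9.04, 8.64 and 6.33 CPM under CDAHFD, with no overlap between the diets, and the log2 fold change was 2.10 (SE 0.24, adjusted p = 0.00125). Against C57BL/6J, the ratio of summed scaled counts was 51.7 on ND (95% exact interval 14 to 432) and 439 on CDAHFD (121 to 3630), intervals that cover counting error only. Both strain differences were called (adjusted p = 0.000656 and 1.51e-05). Without C57BL/6J ND replicate 2, which held the 2 ND counts, the fitted ND log2 fold change went from 5.52 to 8.74, and without C57BL/6J CDAHFD replicate 2 the CDAHFD value went from 8.46 to 10.7. What sequence the counted reads come from was not analysed here, and the coding Hist2h2bb gene is not separable from Gm42743 in this row.

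Hist1h1c encodes a linker histone H1, which binds the DNA between nucleosomes, and was the most abundant H1 gene. In ICR its level was 37.0, 61.7 and 56.8 CPM under ND and 101, 103 and 90.9 CPM under CDAHFD. The groups did not overlap, and the log2 fold change was 0.94 (SE 0.19, adjusted p = 0.00872). In C57BL/6J the level was 57.4, 92.8 and 79.5 CPM under ND and 45.4, 95.2 and 101 CPM under CDAHFD. These groups overlapped, with CDAHFD replicate 1 the lowest of the 6 libraries, and the log2 fold change was 0.07 (SE 0.29, adjusted p = 0.856). It was 0.70 with an adjusted p of 0.0333 with library size alone.

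The 2 leading genes can also be compared with each other without any scaling, as the number of Hist1h1c counts per Hist1h2bc count in the same library. The ratio was 0.290, 0.551 and 0.412 in C57BL/6J on ND and 0.587, 1.09 and 1.22 on CDAHFD. It was 0.337, 0.656 and 0.588 in ICR on ND and 1.30, 1.73 and 1.38 on CDAHFD. The diet groups did not overlap in either strain, and the group means were 0.418 ± 0.131 and 0.965 ± 0.334 (SD, n = 3) in C57BL/6J and 0.527 ± 0.168 and 1.47 ± 0.231 in ICR. The ratio was formed after these levels had been seen and is given with no test, and it shows how the genes changed relative to each other, not which of them changed. Replicate 1 was the lowest of its group in all 4 groups, although replicate numbers are not known to link samples.

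**Figure D4:**
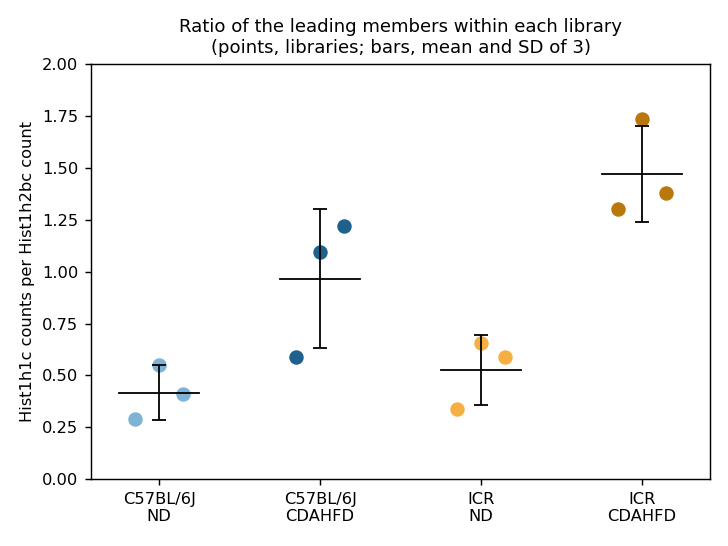
Hist1h1c counts per Hist1h2bc count in each library, with the mean and SD of the 3 libraries of a group. CDAHFD libraries lie at 0.587 to 1.22 in C57BL/6J and at 1.30 to 1.73 in ICR, above the ND libraries of the same strain at 0.290 to 0.551 and 0.337 to 0.656.

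Among the other H1 genes, Hist1h1d was called in ICR. It was at 0.0983, 0.676 and 0.827 CPM under ND and at 8.54, 2.88 and 2.65 CPM under CDAHFD, which corresponds to 2, 12 and 15 counts and to 324, 100 and 96 counts. The groups did not overlap and replicate 1 on CDAHFD stood far above the others. The log2 fold change was 3.17 (SE 0.76, adjusted p = 0.0168). Without that library it was 2.38 (adjusted p = 0.0458), and without ICR ND replicates 2 and 3 it was 5.50 (adjusted p = 0.0329). In C57BL/6J Hist1h1d was at 0.524, 0.863 and 0.741 CPM under ND and at 0.824, 1.45 and 1.37 CPM under CDAHFD (log2 fold change 0.78, SE 0.41, adjusted p = 0.147).

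Hist1h1e, another linker histone gene, was called between the strains on ND, with 0, 0 and 4 counts in C57BL/6J against 5, 43 and 14 in ICR (log2 fold change 3.90, SE 1.14, adjusted p = 0.0317). The call rests on few counts. It was lost without C57BL/6J ND replicate 1 (adjusted p = 0.106) or 2 (adjusted p = 0.0791) and without ICR ND replicate 2 (2.73, adjusted p = 0.133) or 3 (adjusted p = 0.0590), and it was 1.72 (adjusted p = 0.589) without both of these ICR libraries. Without C57BL/6J ND replicate 3 the fitted value was 8.01. The testis H1 gene Hist1h1t, with the H1 genes Hist1h1a and Hist1h1b, had at most 48 counts over all 12 libraries.

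Hist1h4i was the leading H4 gene and separated the strains on both diets. H4 pairs with H3 in the core of the nucleosome, and all H4 genes encode nearly the same protein. Hist1h4i was at 2.41, 1.38 and 1.11 CPM in C57BL/6J on ND and at 1.17, 1.16 and 1.12 CPM under CDAHFD. For ICR it was at 4.33, 4.50 and 4.47 CPM under ND and at 10.3, 6.37 and 7.57 CPM under CDAHFD. Every ICR library thus lay above every C57BL/6J library, and the ICR diet groups did not overlap. The strain log2 fold change was 1.43 on ND (SE 0.29, adjusted p = 0.00777) and 2.81 on CDAHFD (SE 0.29, adjusted p = 0.000120). The ND value was 1.40 (adjusted p = 0.100) without ICR ND replicates 2 and 3.

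The diet log2 fold change of Hist1h4i was 0.87 in ICR (SE 0.24, adjusted p = 0.0258) and -0.50 in C57BL/6J (SE 0.38, adjusted p = 0.309). The ICR call was lost without ICR CDAHFD replicate 1 (0.65, adjusted p = 0.0705), ICR CDAHFD replicate 3 (0.92, adjusted p = 0.0631) or ICR ND replicate 3 (0.87, adjusted p = 0.0756), and without ICR ND replicates 2 and 3 together (adjusted p = 0.118). Hist1h4n, whose sequence is largely shared with other H4 genes, held 5, 4 and 4 counts in ICR on ND and 78, 41 and 16 on CDAHFD (log2 fold change 2.40, SE 0.66, adjusted p = 0.0281). Its call was lost when any single ICR library other than CDAHFD replicate 3 was left out, with adjusted p values of 0.0599 to 0.0909 and a value of 1.78 without CDAHFD replicate 1. It held 2, 0 and 0 counts in C57BL/6J on ND and 2, 0 and 7 on CDAHFD. Hist1h4h, like Hist1h4n an H4 gene whose annotated transcript ends near the stem-loop, was at 0.524, 1.67 and 1.32 CPM in C57BL/6J on ND. Under CDAHFD it was at 1.25, 1.37 and 1.59 CPM in that strain. In ICR it was at 0.983, 0.901 and 1.21 CPM on ND and at 2.08, 1.41 and 1.99 CPM under CDAHFD. The ICR groups did not overlap, but the change was not called (log2 fold change 0.83, SE 0.33, adjusted p = 0.0857).

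**Figure D5:**
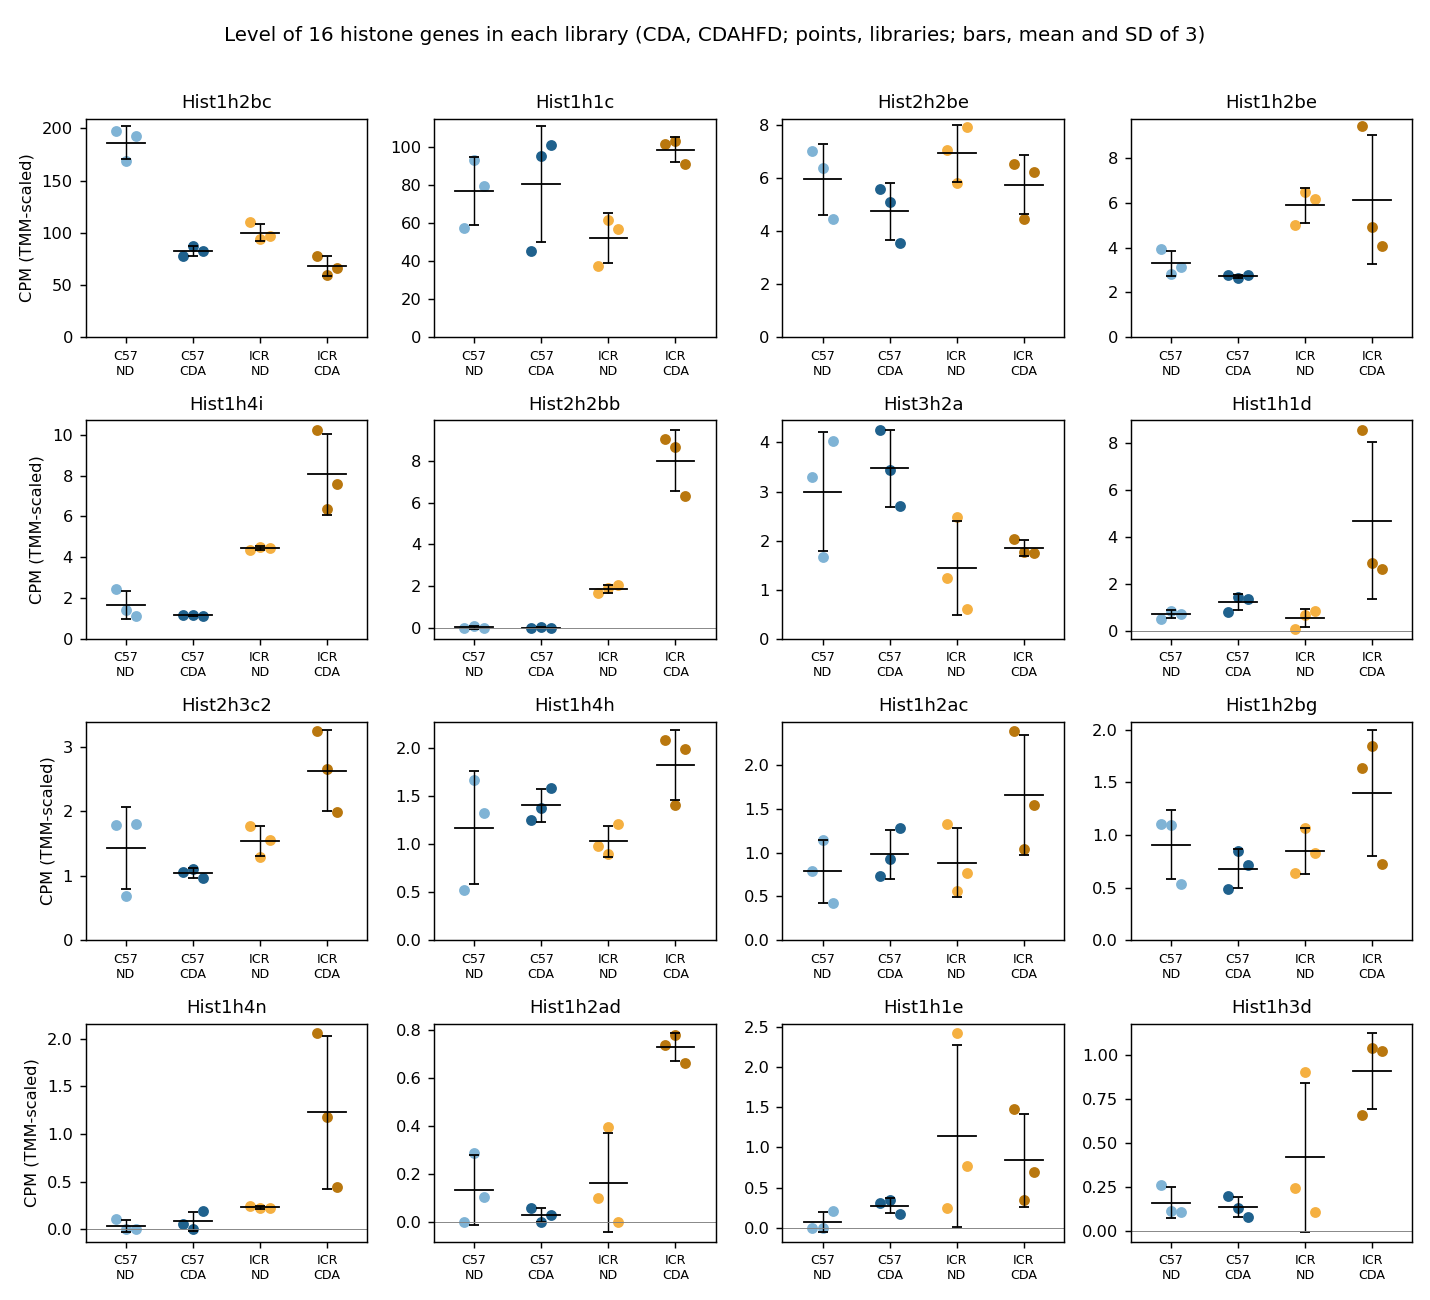
CPM of 16 histone genes in each library (points), with the mean and SD of the 3 libraries of each group; every panel has its own vertical scale. Hist1h2bc is highest in C57BL/6J on ND (168 to 198 CPM), the Hist2h2bb row and Hist1h4i are higher in every ICR library than in any C57BL/6J library, and Hist1h1d in ICR CDAHFD replicate 1 (8.54 CPM) stands above all other libraries.

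The H3 and H2A genes were less abundant. Hist2h3c2 was at 1.78, 0.690 and 1.80 CPM in C57BL/6J on ND and at 1.05, 1.11 and 0.959 CPM under CDAHFD. For ICR it was at 1.77, 1.30 and 1.54 CPM under ND and at 3.24, 2.65 and 1.99 CPM under CDAHFD, with no overlap between the diets (log2 fold change 0.78, SE 0.31, adjusted p = 0.0909). Hist1h3d, which has 145 counts in all, was at 0.0822 to 0.199 CPM in C57BL/6J on CDAHFD and at 0.659 to 1.04 CPM in ICR on CDAHFD. Among H2A genes Hist3h2a, which shares exons with Trim17, was at 1.67 to 4.26 CPM in C57BL/6J and at 0.607 to 2.48 CPM in ICR. It was called in none of the 5 comparisons (adjusted p = 0.656 for diet in C57BL/6J and 0.574 in ICR, 0.113 between the strains on ND and 0.164 on CDAHFD, and 0.966 for strain by diet). Hist1h2ac was at 0.424 to 2.40 CPM, with diet log2 fold changes of 0.33 in C57BL/6J (SE 0.46, adjusted p = 0.586) and 0.90 in ICR (SE 0.49, adjusted p = 0.186).

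On ND, 3 members were higher in ICR than in C57BL/6J (Hist1h1e, Hist1h4i and the Hist2h2bb row) and Hist1h2bc was lower, of 20 tested. Over 13901 genes, 11.3% were higher and 10.1% lower. The median was 0.15 over the members and -0.01 over all genes on the log2 scale. Of the 3 higher members, Hist1h1e and the Hist2h2bb row had too few counts to be tested within C57BL/6J. They could enter through ICR libraries in which they were high, which bears on the count and the median. Leaving out ICR ND replicate 2, 2 members were lower, Hist1h2bc and Hist3h2a, and without ICR ND replicates 2 and 3 together only the Hist2h2bb row was called, as higher.

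On CDAHFD, 8 of 20 members were higher in ICR and 0 lower, where 8.13% of 13901 genes were higher and 7.5% lower. DESeq2 also called 8 and 0, and at an unadjusted p under 0.05 there were 11 and 1. The median log2 fold change was 1.20 over the members and -0.01 over all genes, and 18 of 20 were above 0. Of the 20 members, 9 had too few counts to be tested within C57BL/6J and so could enter through ICR libraries in which they were high, which bears on the count and the median. Beside Hist1h4i and the Hist2h2bb row, the 8 were Hist1h1d (log2 fold change 1.94, adjusted p = 0.0382), Hist1h2be (1.18, adjusted p = 0.0220), Hist1h3d (2.68, adjusted p = 0.0204), Hist1h4n (3.83, adjusted p = 0.0150), Hist2h3c2 (1.33, adjusted p = 0.0279) and Hist1h2ad. Hist1h2ad, an H2A gene, held 28, 27 and 24 counts in ICR and 2, 0 and 1 in C57BL/6J, a ratio of 26.5 (95% exact interval 8.75 to 131, counting error only, adjusted p = 0.0148). This count was sensitive to single libraries: it was 4 without C57BL/6J CDAHFD replicate 1, 3 without replicate 2 and 4 without replicate 3, and 5 without ICR CDAHFD replicate 1 or 2. Hist1h4i and the Hist2h2bb row were called with any 1 library left out. Hist1h2be was lost without any C57BL/6J CDAHFD library (adjusted p = 0.0568 to 0.0718) and without ICR CDAHFD replicate 1 (0.73, adjusted p = 0.0629). Hist1h1d was lost without any CDAHFD library of either strain and without C57BL/6J ND replicate 1 or 3 (adjusted p = 0.0503 to 0.147), with a value of 1.18 without ICR CDAHFD replicate 1. Hist1h3d was lost without CDAHFD replicate 2 or 3 of either strain (adjusted p = 0.0632 to 0.0700) and Hist1h2ad without C57BL/6J CDAHFD replicate 2 or 3 (adjusted p = 0.0538 and 0.0524). Hist2h3c2 was lost without any C57BL/6J CDAHFD library and without ICR CDAHFD replicate 1 or 2 (adjusted p = 0.0708 to 0.0847), and Hist1h4n without C57BL/6J CDAHFD replicate 1 (adjusted p = 0.0625). The diet and strain comparisons share libraries and are not independent of each other.

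The strain by diet term, which asks whether the diet effect differs between the strains, was called for 0 of 20 members, higher or lower, where 0.122% of 13901 genes were called higher and 0.0575% lower. DESeq2 called 0 as well. At an unadjusted p under 0.05, 5 members were higher and 0 lower. The median was 1.18 over the members and -0.01 over all genes, and 19 of 20 were above 0, but the same 9 members, Hist1h2ad, Hist1h4n and the Hist2h2bb row among them, could enter through ICR libraries alone, so these figures are no support for a difference. The smallest p values belonged to Hist1h2bc (0.61, SE 0.18, adjusted p = 0.253), Hist1h4i (1.37, SE 0.41, adjusted p = 0.256) and Hist1h1d (2.37, SE 0.88, adjusted p = 0.386).

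The remaining 38 members were counted too rarely to be tested in the 12 libraries. They had 1 to 98 counts over all libraries (median 21.5) and 1018 of the 70133 histone counts. Their sum was 1.73, 3.85 and 2.28 CPM in C57BL/6J on ND and 2.44, 3.28 and 2.79 CPM under CDAHFD. For ICR it was 1.97, 2.42 and 1.82 CPM under ND and 6.06, 3.05 and 3.07 CPM under CDAHFD, so that the ICR diet groups did not overlap and the C57BL/6J groups did. Of the 49 genes of the Hist1 cluster on chromosome 13, 15 were tested and the rest are in this set. In ICR CDAHFD replicate 1, 4 of the 38 had no count, against 11 and 12 in the other ICR CDAHFD libraries and 20 to 26 in the ICR ND libraries, which held fewer counts in all (23363460 to 24205176 against 29665092 to 30826629).

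Beside the histone genes themselves, the genes that make and process their mRNA were counted, for which the shares over all genes are again 26% higher and 21.2% lower in C57BL/6J and 20.1% and 16.5% in ICR. Of 24 tested genes of histone mRNA processing, 0 were higher and 3 lower in C57BL/6J (median 0.02) and 1 was higher and 2 lower in ICR (median -0.11). Slbp was at 19.0 to 24.0 CPM under ND and at 22.7 to 23.8 CPM under CDAHFD in C57BL/6J, with overlapping groups in both strains (log2 fold changes 0.15 and 0.16, adjusted p = 0.399 and 0.496), and with library size alone it was called higher in both (0.80, adjusted p = 0.00321, and 0.77, adjusted p = 0.0160). Npat, the coactivator of histone genes at the start of S phase, had log2 fold changes of 0.33 (adjusted p = 0.197) and -0.27 (adjusted p = 0.236), against 0.99 (adjusted p = 0.00411) and 0.35 (adjusted p = 0.108) with library size alone. Cpsf4, of the cleavage and polyadenylation machinery, fell in both strains (-0.63, adjusted p = 0.00356, and -0.85, adjusted p = 0.00557), a fall that was not kept with library size alone (0.02 and -0.25, adjusted p = 0.904 and 0.237). Snrpd3, a ring protein of small nuclear ribonucleoproteins, fell in C57BL/6J (-0.55, adjusted p = 0.00400), where the value was 0.11 with library size alone. Eri1, the exonuclease that trims the histone mRNA end, rose in ICR (0.48, adjusted p = 0.0174), and was at 0.27 in C57BL/6J (adjusted p = 0.168), or 0.91 (adjusted p = 0.00106) with library size alone. With library size alone 15 of the 24 genes were higher in C57BL/6J and 12 in ICR, with 0 lower in either.

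Of the histone chaperones, which carry histones to chromatin, 8 of 24 were higher in C57BL/6J and 2 of 24 in ICR and 0 lower in either (medians 0.20 and 0.05), where 26% and 20.1% of all genes were higher. With library size alone 21 and 18 of the 24 were higher. Chaf1b, a subunit of the chromatin assembly factor that acts at replication forks, rose in both strains (1.83, adjusted p = 0.000317, and 1.11, adjusted p = 0.0406). Asf1b, the H3 and H4 chaperone of proliferating cells, and Daxx, which deposits the variant H3.3, were higher in C57BL/6J (1.79, adjusted p = 0.00190, and 0.79, adjusted p = 0.00209). In ICR they had values of 0.14 and -0.24 (adjusted p = 0.850 and 0.329). The strain by diet term was not called for these 3 genes (adjusted p = 0.161 to 0.616).

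Of the replication-independent variants, 2 of 10 were higher and 3 lower in C57BL/6J, and 2 of 11 higher and 2 lower in ICR, shares near those of all genes. With library size alone 7 of 10 and 5 of 11 were higher and 0 lower. H1f0, the linker histone of resting cells, was at 206 to 225 CPM under ND and 128 to 137 CPM under CDAHFD in C57BL/6J and at 196 to 264 and 143 to 157 CPM in ICR. It was called lower in both (-0.67, adjusted p = 0.00222, and -0.55, adjusted p = 0.0224), which library size alone brought to -0.02 and 0.06. H3f3b, an H3.3 gene, was higher in C57BL/6J (0.58, adjusted p = 0.0126) and had a value of 0.11 in ICR (adjusted p = 0.646), which was 0.72 (adjusted p = 0.0150) with library size alone. H2afy2, a macroH2A gene, rose in both strains (1.35, adjusted p = 0.00706, and 1.90, adjusted p = 0.0108).

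Genes of the cell cycle rose with CDAHFD in C57BL/6J. Of 20 tested genes of G2 and mitosis, 18 were higher and 1 lower in C57BL/6J (median 1.94), and of 36 S phase genes 21 were higher and 4 lower (median 0.90). In ICR 2 of 20 genes of G2 and mitosis were higher and 0 lower (median 0.69). Of 37 S phase genes 12 were higher and 3 lower (median 0.63). Over all genes, 26% were higher and 21.2% lower in C57BL/6J, and 20.1% and 16.5% in ICR. The strain by diet term was called for 0 of 20 genes of G2 and mitosis and 0 of 37 S phase genes. On ND, 12 and 2 of these were higher in ICR than in C57BL/6J, and 0 and 4 lower. All genes gave 11.3% and 10.1%. On CDAHFD 0 and 0 were higher and 0 and 5 lower, against 8.13% and 7.5%. Mki67, the proliferation marker, was at 9.48, 10.8 and 6.94 CPM in C57BL/6J on ND and at 39.1, 48.2 and 61.5 CPM under CDAHFD (log2 fold change 2.45, adjusted p = 3.90e-05). For ICR it was at 9.29, 41.8 and 30.8 CPM under ND and at 59.8, 58.6 and 38.1 CPM under CDAHFD (0.95, adjusted p = 0.159, and 1.59, adjusted p = 0.0248, with library size alone). ICR ND replicates 2 and 3 thus lay within or near the CDAHFD range, and without both, 10 of the 20 genes of G2 and mitosis were higher in ICR. With 1 library left out the ICR count for G2 and mitosis was 0 without CDAHFD replicate 1 or 2 or ND replicate 1 or 3, and 4 without ND replicate 2. For S phase it was 7 without CDAHFD replicate 2 or ND replicate 3. With library size alone the ICR counts for G2 and mitosis and for S phase were 16 and 27. Those in C57BL/6J were then 19 and 30.

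Among single genes, Uhrf1, which links replication to DNA methylation, rose in C57BL/6J (3.94, adjusted p = 3.84e-05, against 0.94, adjusted p = 0.288, in ICR), and Mcm6, of the replicative helicase, rose in both strains (2.28, adjusted p = 0.000106, and 2.43, adjusted p = 0.00158). The replication factor gene Mcm10 went the other way, with log2 fold changes of -1.73 (adjusted p = 0.000176) and -1.77 (adjusted p = 0.000599). The mitotic genes Kif11 and Bub1 rose in C57BL/6J (2.21, adjusted p = 9.89e-05, and 2.48, adjusted p = 0.000248), and Bub1 rose in ICR (1.01, adjusted p = 0.0377). Kif11 was at 0.68 in ICR (adjusted p = 0.23), or 1.31 (adjusted p = 0.0274) with library size alone.

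Markers of several cell types moved with the diet beside the histone genes. The shares over all genes are 26% higher and 21.2% lower in C57BL/6J and 20.1% and 16.5% in ICR. Hepatocyte markers, led by Alb and Fgb, were lower for 5 of 9 tested genes in each strain and summed to 115100 to 147400 CPM under ND and 48870 to 89800 CPM under CDAHFD. Macrophage markers, led by Lyz2 and Gpnmb, were higher for 8 of 8 in each strain (69.6 to 180 CPM under ND and 1500 to 3748 CPM under CDAHFD). Stellate cell markers, led by Dcn and Col3a1, were higher for 9 of 9 (200.2 to 436 CPM under ND and 1803 to 2867 on CDAHFD), and cholangiocyte markers, led by Spp1 and Sox9, for 5 of 6 in C57BL/6J and 6 of 6 in ICR (83.7 to 282 and 758 to 2600 CPM). T cell markers, led by Cd4 and Lck, were higher for 8 of 9 and 6 of 9 (5.96 to 12.7 and 16.8 to 35.5 CPM), and neutrophil markers, led by S100a9 and S100a8, for 0 of 4 and 3 of 8. Erythroid markers, led by Hbb-bs and Alas2, were lower for 7 of 9 and 4 of 8 and higher for 1 in each (434 to 907 and 75.2 to 304 CPM). Kupffer cell (Cd5l and Clec4f) and endothelial markers (Kdr and Cdh5) had at most 1 gene called in either direction in a strain. With library size alone, hepatocyte markers were lower for 3 of 9 in each strain and T cell markers higher for 8 of 9. Neutrophil markers were then higher for 1 of 4 and 4 of 8, and cholangiocyte markers for 6 of 6. Erythroid markers were lower for 6 of 9 and 3 of 8. Kupffer cell markers had 2 genes higher and 1 lower in C57BL/6J and 1 higher in ICR. Endothelial markers had 2 genes higher in each strain. The part of these shifts in the histone levels was not tested.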

How the data were processed

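Gene counts of 12 liver libraries (4 groups of 3 samples) were analysed as deposited. The deposited counts and FPKM were made by the authors, whose processing notes list featureCounts 2.0.6, HISAT2 2.2.1, fastp 0.23.4 and edgeR 4.0.16. The notes name the build mm39, the methods of the study mm10, and no source used here gives the annotation. FPKM served only to compare levels between genes. The authors' CPM columns (12) were not used. Of 17713 lines 3 were repeated, which left 17710 genes.

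Counts were filtered with filterByExpr (minimum count 10, minimum total 15), TMM-scaled and tested with the edgeR 4.0.16 quasi-likelihood F test in R 4.3.3, within strain for diet and in 1 fit of 12 libraries for the strain contrasts and the strain by diet term, with Benjamini-Hochberg adjustment over all genes tested. SE is the standard error of a log2 fold change. Scripts were tested on simulated data. Library totals were 22245245 to 32214782 counts, and count intervals cover counting error only.

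The members, the gene lists and the rules were chosen with earlier results of these data known. Named histone genes are the 12 with the highest mean CPM, the 6 with the smallest p in each diet comparison and the 3 with the smallest p in each other comparison. Hist1h1e, Hist1h3d and the untested members named were added after their values were seen. From each list of related genes the 3 with the smallest p in either diet comparison are named, with Slbp, Npat and Mki67.

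Members were matched to GENCODE M21 (GRCm38) by gene identifier (50) or symbol (7), and the Hist2h2bb row by its identifier to Gm42743. Alternatives were DESeq2-type size factors, library size alone, no filter, a CPM of at least 1 in 3 libraries, the DESeq2 1.42.0 Wald test, each library left out, ICR ND replicates 2 and 3 left out, the replicate number as a block and, for diet, 1 fit of 12 libraries. No 2 libraries of a group agreed within sampling noise. A further marker list is not reported here.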

Additional observations from a re-analysis of the deposited data

How the results depend on the processing

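With scaling by library size alone, in C57BL/6J 2 histone genes were higher on CDAHFD instead of 0, in ICR 10 instead of 5 were higher and 0 instead of 1 lower, Hist1h2bc in ICR went from -0.56 to 0.05 on the log2 scale, and the mean summed level was 235.6 CPM in C57BL/6J on CDAHFD, 234.5 on ND, and 263.7 and 143.5 in ICR. Requiring a CPM of at least 1 in 3 libraries, which left 11 members tested, gave 5 instead of 8 members higher in ICR on CDAHFD. Without ICR ND replicates 2 and 3 together, 1 instead of 3 was higher and 0 instead of 1 lower in ICR on ND. With each library left out in turn, 0 were higher and 1 lower for diet in C57BL/6J, 3 to 7 higher and 0 to 1 lower for diet in ICR, 2 to 4 higher and 1 to 2 lower between strains on ND, 3 to 8 higher and 0 lower on CDAHFD, and 0 for strain by diet. Over the same fits Hist1h1c in C57BL/6J ranged from -0.13 to 0.35 and changed sign. With the replicate number as a block, 0 members were higher and 1 lower for diet in C57BL/6J, 4 and 1 in ICR, 2 and 1 between strains on ND and 8 and 0 on CDAHFD, and Hist1h1d (diet in ICR, adjusted p = 0.0587) and Hist1h1e (strain on ND, adjusted p = 0.0509) lost their calls. Same-numbered libraries did not all deviate together (correlations of replicates 1, 2 and 3 between diets 0.160, 0.131 and -0.025 for C57BL/6J, 0.166, -0.023 and 0.049 for ICR, and between the strains 0.401, 0.314 and 0.093 on CDAHFD and 0.198, 0.15 and -0.114 on ND), so the numbers were not taken to pair samples. The replicate 1 libraries correlated positively in each of these comparisons, and a deviation shared by them was not tested. The study describes its expression heatmap as corrected for batch effects, without naming the batches. DESeq2-type size factors and DESeq2 moved no count by over 1.5 times. Of the 58 members, 41 had fewer than 100 counts in all 12 libraries, and the cause of the low counts was not tested.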
